A study of Mus musculus with 18 samples.

Results

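Cystic regions rich in macrophages were compared with cystic regions poor in them in the kidneys of mice that had lost Pkd1. The comparison used 12 of the 18 libraries of the study, chosen by their labelled region type: 6 libraries from F4/80-high cystic regions and 6 from F4/80-low cystic regions, with 2 libraries of each region type from each of 3 kidneys. The remaining 6 libraries came from non-cystic regions of the same kidneys and served to estimate the spread. All 3 region types carry the same genotype: the mice were male C57BL/6 animals of the line iKspCre-Pkd1del, in which a kidney-specific Cre, activated by tamoxifen, deletes Pkd1 exons 2 to 11. Tamoxifen had been given by oral gavage at 12.5 mg/kg on postnatal days 18 and 19, and kidneys were collected in a mild cystic phase followed by MRI. The labelled age was 269 for kidneys 1 and 3 and 297 for kidney 2, with no unit. The labels number the kidneys without saying whether they came from separate mice. The p-values below rest on how much region differences varied among these 3 kidneys, estimated over all 3 region types. Kidney was a block in the fit, so differences shared by all regions of a kidney are left out of that spread. The Cre is driven in kidney epithelium, and the non-cystic regions are regions of a mutant kidney, not healthy tissue. The study's title sets the aim of finding paracrine factors of the early cyst microenvironment.

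F4/80 is a surface receptor of mouse macrophages encoded by Adgre1 and is the usual antibody target for finding these cells in sections. In polycystic kidney disease, macrophages gather around cysts and are drawn there by chemokines from the cyst epithelium, and their loss slows cyst growth in mouse models. They remove dead cells and matrix, present antigen through MHC class II and release growth factors and complement proteins. The tubule epithelium around them commonly passes from a transporting state, rich in mitochondria, to an injured state with stromal matrix laid down beside it.

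Levels are given as CPM, read counts scaled to a common library size after adjustment by the trimmed mean of M-values (TMM). Where 3 CPM values are given for a region type, they are the lowest, the median and the highest of its 6 libraries. Fold changes are log2 differences of F4/80-high minus F4/80-low with their standard error, from edgeR's quasi-likelihood test with kidney as a block on the sums of the 2 libraries of each kidney and region type. A gene was called when its Benjamini-Hochberg adjusted p over all 16034 genes tested was below 0.05. The 12 libraries held between 5841975 and 9188813 counts.

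The label was checked first. Adgre1 had 34.7, 54.0 and 74.9 CPM in F4/80-high libraries and 3.14, 5.94 and 14.7 CPM in F4/80-low libraries, a difference of 3.05 ± 0.29, adjusted p = 0.000834. The groups did not overlap. Since the regions were chosen by F4/80, this is a check of the labels and not a finding. The share of counts from the mitochondrial genome was 1.49% to 4.06% in F4/80-high libraries and 7.71% to 11.1% in F4/80-low libraries, and 20033 to 20969 genes were detected against 17804 to 19458. One library stood apart from its group: in F4/80-low kidney 2 replicate 2, osteopontin (Spp1) took 8.90% of all counts, against 0.241% to 2.09% in the other 5 F4/80-low libraries. In tissue regions, more cells of a type and more RNA per cell cannot be told apart.

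Between the region types, 1649 genes were higher in F4/80-high regions (10.3% of those tested) and 2246 were lower (14.0%), together 24.3%. Among called genes, 3891 of 3895 had the same direction in all 3 kidneys, which the blocked test favours, against 9550 of all 16034 tested (59.6%). More than 4-fold changes numbered 488 upwards and 469 downwards, and more than 16-fold changes 46 and 42. The median over all genes tested was 0.04 on the log2 scale. In 1176 genes (7.33%) all 6 F4/80-high libraries lay above all 6 F4/80-low libraries, and in 1554 genes (9.69%) all lay below. The split between higher and lower calls rested on the scaling: 4211 higher and 1120 lower genes were called with library totals, which shift the median of all genes to 0.52, and 2101 and 1855 with upper quartile factors, which shift it to 0.16. Changes below are relative to the TMM scale. The number of higher calls was 1096 without F4/80-low kidney 2 replicate 1, and without kidney 1 altogether 467 genes were higher and 521 lower. Every fit without replicate 1 of F4/80-low kidney 2 leaves replicate 2, the library that stood apart, alone for that kidney and region type. Calls lost there therefore cannot be laid to replicate 1 alone. Without F4/80-low kidney 2 replicate 2, the library that stood apart, 1830 genes were higher and 2384 lower.

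**Figure D1:**
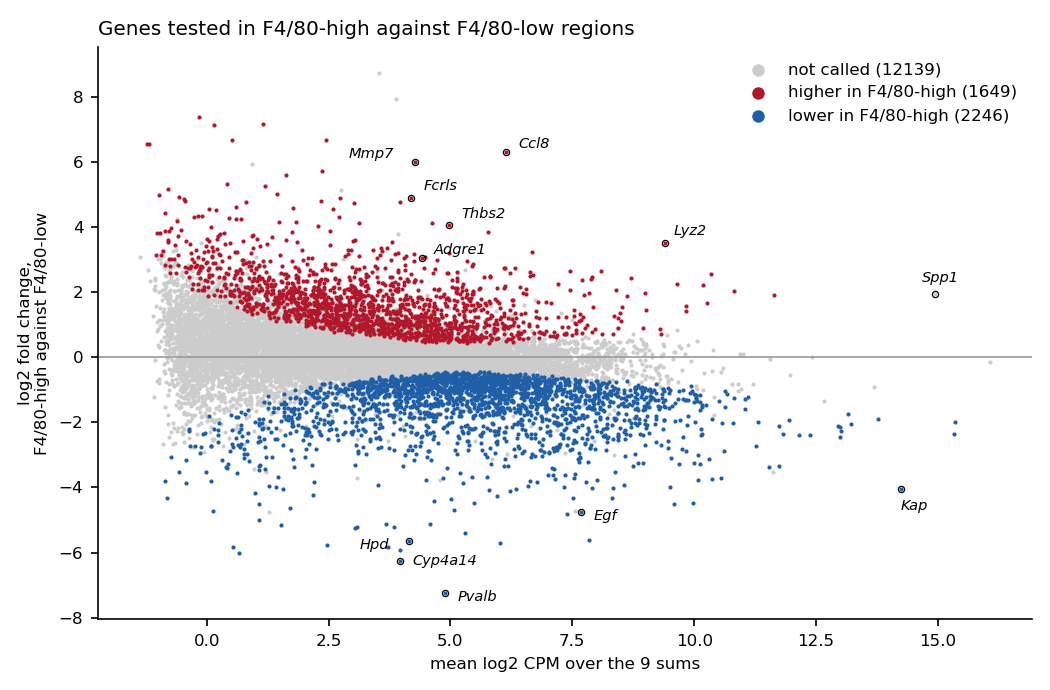
Log2 fold change of F4/80-high against F4/80-low regions (y axis) against mean log2 CPM over the 9 sums of kidney and region type (x axis), 1 point per gene tested; red and blue points are the 1649 higher and 2246 lower genes. Named higher genes range from Adgre1 at 3.05 to Ccl8 at 6.30, Pvalb lies lowest of the named genes at -7.25, and Spp1 at 1.94 is grey because its adjusted p was 0.0566.

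The 10 genes with the largest rises were Ccl8, Mmp7, Fcrls, Cck, Rnase1, Kif1a, Smoc2, Thbs2, Col12a1 and Spink12. Ccl8, a chemokine that attracts monocytes and T cells, had 62.8, 189 and 449 CPM in F4/80-high libraries and 0.274, 1.25 and 17.0 CPM in F4/80-low libraries (6.30 ± 1.18, adjusted p = 0.0148). Fcrls, a scavenger-type receptor of resident macrophages, had 26.8, 51.7 and 81.5 CPM against 0, 1.30 and 3.94 CPM (4.88 ± 0.47, adjusted p = 0.000986). Thbs2, the matrix protein thrombospondin 2, had 24.1, 47.5 and 198 CPM against 1.89, 4.94 and 8.62 CPM (4.08 ± 0.47, adjusted p = 0.00214). For these 3 genes every F4/80-high library exceeded every F4/80-low library. In GRCm38 with the GENCODE M21 annotation, Ccl8 lies on chromosome 11, 82115185 to 82116799, Fcrls on chromosome 3, 87250758 to 87263738 and Thbs2 on chromosome 17, 14665500 to 14694235. Mmp7, a protease secreted by injured epithelium, showed 4.68, 27.9 and 213 CPM against 0, 0.146 and 8.00 CPM (5.99 ± 0.77, adjusted p = 0.00349). Its groups overlapped through F4/80-low kidney 2 replicate 2, and its adjusted p was 0.102 without F4/80-high kidney 2 replicate 1, the library with the highest level. The other leading genes were Cck, which encodes the peptide hormone cholecystokinin (4.78 ± 0.81, adjusted p = 0.00840), the secreted ribonuclease Rnase1 (4.76 ± 0.46, adjusted p = 0.000834), the axonal motor protein Kif1a (4.13 ± 0.42, adjusted p = 0.000852), and the matrix proteins Smoc2 (4.12 ± 0.68, adjusted p = 0.00817) and Col12a1 (3.85 ± 0.72, adjusted p = 0.0131). Rnase1 varied widely between libraries that were summed. Its 2 F4/80-high libraries had 7.52 and 55.8 CPM in kidney 1, 5.03 and 2.39 CPM in kidney 2, and 2.90 and 72.0 CPM in kidney 3. F4/80-low libraries had 0 to 1.31 CPM. Spink12, a protease inhibitor gene, was the last of the 10 (3.62 ± 0.99, adjusted p = 0.0408), and 8 of the 18 fits that left out a single library lost its call, with adjusted p up to 0.107.

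The 10 genes with the largest falls were Pvalb, Cyp4a14, Slc22a7, Mep1b, Rdh16f2, Hpd, Cyp2d12, Mogat2, Etnppl and Dpys. Hpd, an enzyme of tyrosine breakdown, had 0.10, 0.709 and 1.01 CPM in F4/80-high libraries and 13.0, 28.9 and 58.0 CPM in F4/80-low libraries (-5.63 ± 0.67, adjusted p = 0.00253). Slc22a7, an organic anion transporter of the proximal tubule, had 0, 0.354 and 1.31 CPM against 9.08, 26.5 and 69.7 CPM (-5.93 ± 1.08, adjusted p = 0.0120). Both genes had all 6 F4/80-high libraries below all 6 F4/80-low libraries. Hpd lies on chromosome 5, 123171807 to 123182727 and Slc22a7 on chromosome 17, 46432183 to 46438457. Pvalb, the calcium-binding protein parvalbumin of the distal convoluted tubule, fell furthest (-7.25 ± 0.68, adjusted p = 0.00123). It was at 0 in 5 F4/80-high libraries and at 0.765 CPM in the other, but F4/80-low libraries ranged from 0 to 84.0 CPM, so the groups overlapped. Its adjusted p was 0.0507 without F4/80-low kidney 2 replicate 1. The fitted folds of genes so close to 0 depend on the prior count and give no bound. The other leading falls were in the pyrimidine enzyme Dpys (-5.13 ± 0.87, adjusted p = 0.00959), the phospholyase Etnppl (-5.21 ± 0.85, adjusted p = 0.00765), the acyltransferase Mogat2 (-5.24 ± 0.80, adjusted p = 0.00495), the retinol dehydrogenase Rdh16f2 (-5.69 ± 1.15, adjusted p = 0.0189) and the cytochromes Cyp2d12 (-5.62 ± 1.10, adjusted p = 0.0155) and Cyp4a14 (-6.26 ± 1.56, adjusted p = 0.0355). The protease Mep1b completed the 10 (-5.84 ± 1.59, adjusted p = 0.0455). Single-library fits gave adjusted p up to 0.0706 for Cyp4a14 and 0.0756 for Mep1b, which lost their calls in 3 and 8 of 18 such fits. Cyp2d12 and Rdh16f2 belong to families of near-identical genes, so their counts are uncertain.

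Macrophage markers rose almost as a whole: 23 of 24 members of the macrophage list were higher and 0 were lower, with a median of 2.34. The summed level of the list was 3778, 4093 and 9339.6 CPM in F4/80-high libraries and 451, 789 and 1335 CPM in F4/80-low libraries, with no overlap. Ms4a7, a membrane protein of tissue macrophages, had 116, 163 and 246 CPM against 15.9, 23.2 and 44.0 CPM (2.75 ± 0.22, adjusted p = 0.000765). Cd53, a tetraspanin of leukocytes, had 57.4, 71.9 and 111 CPM against 4.83, 12.1 and 20.8 CPM (2.61 ± 0.22, adjusted p = 0.000765). Aif1, an actin-binding protein of activated macrophages, changed by 2.47 ± 0.24, adjusted p = 0.000834. Mertk, a receptor for apoptotic cells, was the only list member not called (0.12 ± 0.24, adjusted p = 0.755), with differences of -0.30, -0.24 and 0.94 in kidneys 1, 2 and 3. Because the regions were selected on a macrophage protein, the rise of this list is tied to the selection.

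Markers of macrophage subtypes were counted separately. Of 14 genes of alternative and perivascular-type macrophages, 12 were tested, 4 were higher and 0 were lower: Ccl8, Fcrls, the mannose receptor Mrc1 (3.22 ± 0.32, adjusted p = 0.000921) and the platelet factor Pf4 (3.04 ± 0.44, adjusted p = 0.00275). Retnla, a marker of alternative activation, had 0.184, 18.0 and 37.0 CPM against 0, 0 and 5.70 CPM and was not called (5.13 ± 1.42, adjusted p = 0.0710), but its adjusted p was 0.00308 without F4/80-low kidney 3 replicate 1. Arg1, which encodes arginase, was too low to be tested, at 0.102 to 42.7 CPM in F4/80-high and 0 to 0.821 CPM in F4/80-low libraries. Among 13 genes of lipid-associated macrophages, 5 were higher and 2 were lower, with medians of -0.07 in kidney 1, -0.24 in kidney 2 and 1.08 in kidney 3. The surface receptor Trem2 had 15.1, 26.1 and 80.3 CPM against 0.449, 2.52 and 15.5 CPM (3.20 ± 0.30, adjusted p = 0.000834), and the lipid carrier Apoe had 2266, 2687 and 5322 CPM against 350.5, 532 and 754 CPM (2.58 ± 0.39, adjusted p = 0.00256). Gpnmb, a glycoprotein of lipid-laden macrophages, changed by 4.57 ± 0.72, adjusted p = 0.00353. Its levels were 0.874 to 55.0 CPM in F4/80-high and 0 to 1.23 CPM in F4/80-low libraries, so the groups overlapped. The F4/80-high libraries of kidney 3 were highest (55.0 and 25.0 CPM) and those of kidney 2 lowest (0.874 and 1.28 CPM). Lpl, the lipoprotein lipase, went the other way, at 89.1, 187 and 246 CPM against 309, 623 and 929 CPM (-1.80 ± 0.32, adjusted p = 0.00498), and the groups did not overlap. The lower calls of this list numbered 1 without F4/80-high kidney 1 replicate 2, F4/80-high kidney 2 replicate 2 or F4/80-low kidney 2 replicate 1.

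Other leukocytes were also represented. Of 9 monocyte genes 4 were higher and 1 was lower, led by the chemokine receptor Ccr2 (2.09 ± 0.17, adjusted p = 0.000765). The lower member was Ace, the angiotensin-converting enzyme, which the proximal tubule also makes (-1.82 ± 0.32, adjusted p = 0.00560). In the T and NK cell list, 6 of 16 genes tested were higher and 0 were lower. Its summed level was 92.5, 118 and 153 CPM against 14.4, 31.6 and 49.7 CPM, without overlap. Without kidney 1 the list had 2 higher genes, with a median of 1.70. Il7r, the interleukin 7 receptor, changed by 3.06 ± 0.67, adjusted p = 0.0132, and Cd3g, a chain of the T cell receptor complex, by 2.41 ± 0.39, adjusted p = 0.00310. The dendritic cell list had 4 of 9 genes higher, among them the costimulatory molecule Cd86 (2.20 ± 0.23, adjusted p = 0.000852). Of these, Cd209a and Itgax were lost in several single-library fits, and 2 calls were left without any 1 of F4/80-high kidney 1 replicate 1, F4/80-high kidney 2 replicate 1 and non-cystic kidney 3 replicate 2. All 4 neutrophil genes tested of 8 listed were called higher, at low levels: the list summed to 2.64, 15.7 and 39.2 CPM against 0, 2.07 and 10.5 CPM, and the call count fell to 1 in the lowest of the single-library fits. Of 7 B and plasma cell genes 3 were higher, led by the B cell receptor component Cd79b (1.94 ± 0.23, adjusted p = 0.00123). The plasma cell gene Jchain was spread over almost the whole range, 0.126, 353 and 1181 CPM against 0.748, 144 and 179.7 CPM, and 1 call was left in the list without F4/80-high kidney 3 replicate 1 or either non-cystic library of kidney 3. Mast cell (2 genes tested), adipocyte (1), urothelium (1) and erythrocyte (5) markers had 0 calls, the erythrocyte list 5 lower calls without F4/80-high kidney 3 replicate 1.

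**Figure D2:**
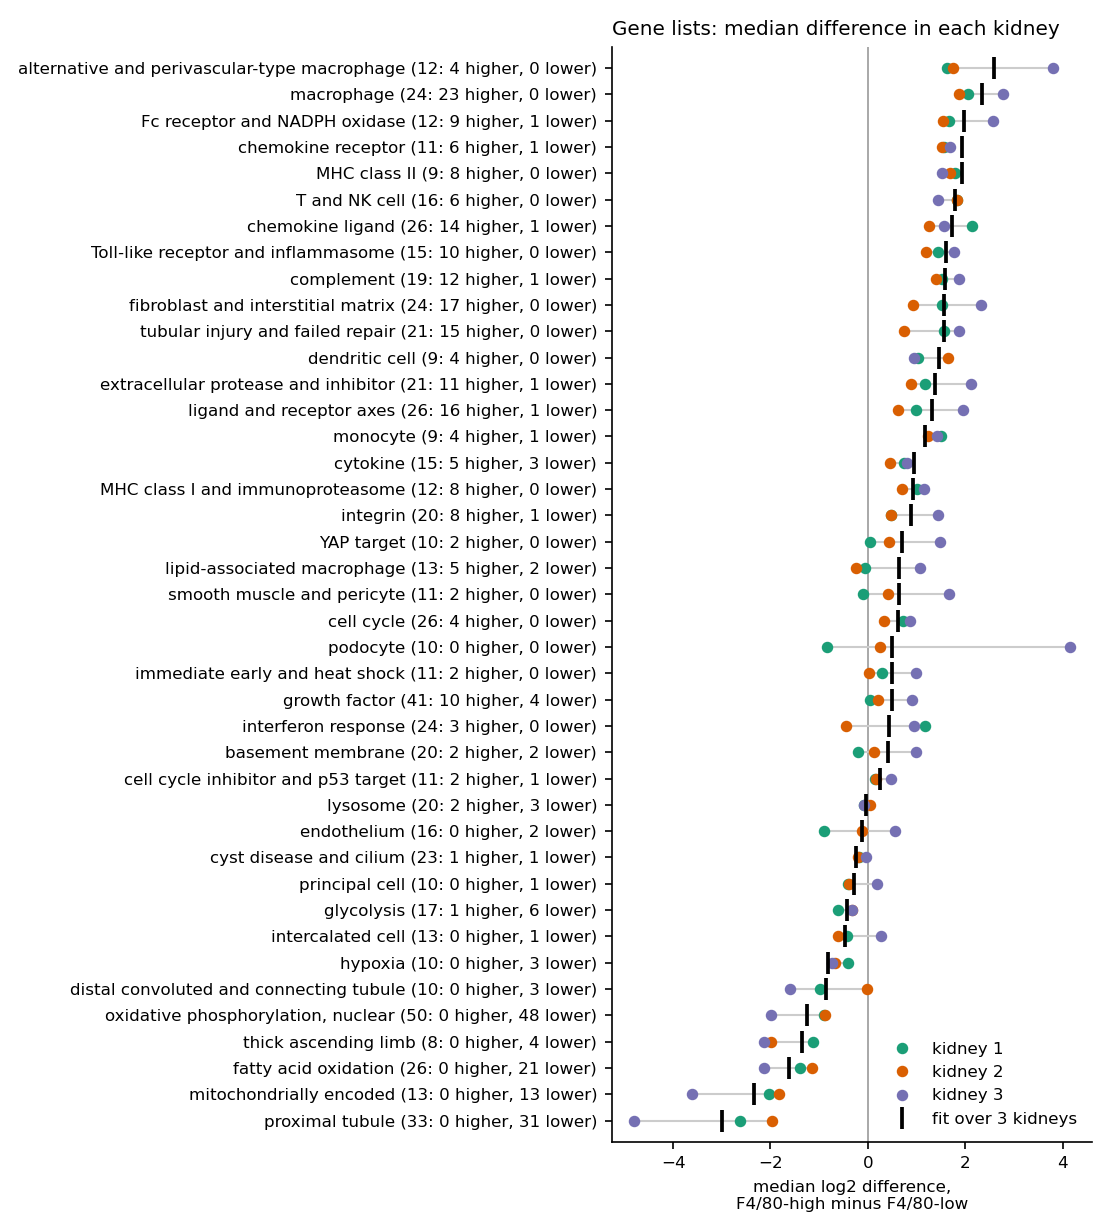
Median log2 difference, F4/80-high minus F4/80-low, of each gene list with at least 8 genes tested (rows, with the number tested and called) in each of 3 kidneys (coloured points) and in the fit over all kidneys (black bar). The macrophage list lies at 1.88 to 2.77 in the 3 kidneys and the proximal tubule list at -4.81 to -1.96, while the podocyte list runs from -0.84 to 4.16 and is not called at any gene.

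In the MHC class II list 8 of 9 genes were higher and 0 were lower, with a median of 1.92 and values of 1.79, 1.70 and 1.53 in kidneys 1, 2 and 3. The list summed to 12129, 13213 and 15555 CPM in F4/80-high and 1883, 3371 and 6234 CPM in F4/80-low libraries. Without kidney 1 the list had 4 higher genes, with a median of 1.85. H2-Aa, a chain of the class II molecule I-A, had 1623, 1931 and 2303 CPM against 221, 400.1 and 607 CPM (2.26 ± 0.31, adjusted p = 0.00194). H2-Eb1, a chain of I-E, had 899, 1191 and 1326 CPM against 164, 293 and 431 CPM (1.99 ± 0.31, adjusted p = 0.00300). No F4/80-high library of either gene fell into the F4/80-low range. The peptide-loading factor H2-DMb1 changed by 1.24 ± 0.19, adjusted p = 0.00266, and its paralog H2-DMb2 by 1.95 ± 0.22, adjusted p = 0.000986, with an adjusted p of 0.0583 without F4/80-low kidney 2 replicate 2. The paralogs are close in sequence and reads may be split between them. For MHC class I and the immunoproteasome 8 of 12 genes were higher, including the light chain B2m (1.41 ± 0.26, adjusted p = 0.00556) and the proteasome subunit Psmb8 (1.47 ± 0.22, adjusted p = 0.00262). That count was 3 without F4/80-low kidney 2 replicate 1, and 1 without kidney 1 altogether, with a median of 0.86.

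The promoters of H2-Aa and H2-Eb1 are shown because class II genes share a promoter element, the Y box, which is bound by the factor NF-Y. The sequences are from RefSeq (GRCm38.p6), and the capitals mark the Y box letters CTGATTGG. Only the bases around the letters are printed, and none past the base before the start.
H2-Aa, chr17:34287824-34287919, minus strand: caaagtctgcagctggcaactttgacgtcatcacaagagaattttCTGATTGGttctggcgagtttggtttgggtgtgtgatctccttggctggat
H2-Eb1, chr17:34305760-34305857, plus strand: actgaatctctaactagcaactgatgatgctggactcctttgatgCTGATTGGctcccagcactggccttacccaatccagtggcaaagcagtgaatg
Between the letters and the start lie 43 bases in H2-Aa, all printed, and 54 in H2-Eb1, whose printed stretch stops short of the start. Searched on both strands of the 250 bases before the start, they occurred in 3 of the 6 class II genes with a window and in 701 of 11877 tested genes (5.90%). A match describes letters and shows no binding.

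Of 26 chemokine ligand genes tested 14 were higher and 1 was lower, with a median of 1.72. Without kidney 1 the count of higher genes was 6, with a median of 1.54. Ccl6, a chemokine of myeloid cells, had 104, 182 and 784 CPM against 11.5, 21.1 and 48.3 CPM (3.25 ± 0.33, adjusted p = 0.000852). Ccl17, which attracts T cells, had 5.69, 12.6 and 32.8 CPM against 0.684, 0.995 and 2.18 CPM (3.46 ± 0.38, adjusted p = 0.000921). Ccl9, another myeloid chemokine, changed by 2.59 ± 0.32, adjusted p = 0.00178. None of these 3 overlapped between the region types. The lower ligand was Cxcl12, the stromal chemokine that retains leukocytes, at 6.28, 16.1 and 28.8 CPM against 24.1, 41.0 and 82.9 CPM (-1.37 ± 0.24, adjusted p = 0.00494). With library totals its adjusted p was 0.0506. Among 11 receptor genes 6 were higher, including Ccr2 and Cx3cr1, and 1 was lower, the decoy receptor Ackr4 (-1.82 ± 0.35, adjusted p = 0.00746).

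Ligands were set beside their receptors for 26 genes, of which 16 were higher and 1 was lower. That count of higher genes was 9 without F4/80-low kidney 2 replicate 1, and 8 without kidney 1 altogether. For the receptor Ccr2, levels were 44.7, 77.8 and 147 CPM against 7.54, 20.2 and 23.5 CPM. Its ligands Ccl2 (2.01 ± 0.25, adjusted p = 0.00146), Ccl7 (2.97 ± 0.61, adjusted p = 0.0158) and Ccl12 (2.67 ± 0.47, adjusted p = 0.00689) also rose. Without F4/80-low kidney 2 replicate 1 the adjusted p was 0.0616 for Ccl7 and 0.0532 for Ccl12, and without F4/80-high kidney 3 replicate 2 it was 0.0692 for Ccl7. The receptor for macrophage colony-stimulating factor, Csf1r, had 44.6, 63.8 and 113 CPM against 21.8, 27.6 and 29.4 CPM (1.41 ± 0.24, adjusted p = 0.00389). Its ligands were not called: Csf1 differed by 0.95 ± 0.39, adjusted p = 0.109 (0.0262 without F4/80-low kidney 2 replicate 2) and Il34 by 0.27 ± 0.20, adjusted p = 0.347. The fractalkine receptor Cx3cr1 rose (1.93 ± 0.23, adjusted p = 0.00135), while its ligand Cx3cl1, at 46.1, 64.1 and 119 CPM against 35.5, 48.5 and 53 CPM, was not called (0.55 ± 0.23, adjusted p = 0.119). Whether the change of a receptor differs from that of its ligand was not tested.

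The macrophage migration inhibitory factor Mif was lower (-0.87 ± 0.25, adjusted p = 0.0312), and its receptor component Cd74, also the class II invariant chain, was higher (1.92 ± 0.38, adjusted p = 0.00746). The call of Mif was lost with library totals (adjusted p = 0.128), without F4/80-high kidney 2 replicate 2 (0.0721) and without F4/80-high kidney 3 replicate 2 (0.0503). Osteopontin, Spp1, had 51176, 64527 and 117377 CPM against 2606, 7772 and 99534 CPM, with the F4/80-low maximum in kidney 2 replicate 2, and was not called (1.94 ± 0.66, adjusted p = 0.0566). Without that library its adjusted p was 0.0097. Its receptor Cd44 was higher (1.58 ± 0.25, adjusted p = 0.00286). The platelet-derived growth factor receptors Pdgfra (1.68 ± 0.25, adjusted p = 0.00255) and Pdgfrb (0.90 ± 0.26, adjusted p = 0.0319) were higher, and the ligands Pdgfa (0.70 ± 0.30, adjusted p = 0.117) and Pdgfb (0.54 ± 0.25, adjusted p = 0.149) were not called. The receptors Tgfbr1 (0.72 ± 0.17, adjusted p = 0.0155) and Tgfbr2 (0.60 ± 0.17, adjusted p = 0.0326) were higher, and Tgfb1 was not called (0.44 ± 0.70, adjusted p = 0.683). Axl, a receptor for apoptotic cells, was higher (1.46 ± 0.21, adjusted p = 0.00226), and its ligand Gas6 was not called (-0.31 ± 0.18, adjusted p = 0.234). Without F4/80-low kidney 2 replicate 1 the adjusted p was 0.0590 for Cd44, 0.0592 for Tgfbr1 and 0.134 for Tgfbr2. Pdgfa gained a call without non-cystic kidney 3 replicate 1 (adjusted p = 0.0449). Pdgfrb lost its call in 4 single-library fits, with adjusted p up to 0.0890.

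**Figure D3:**
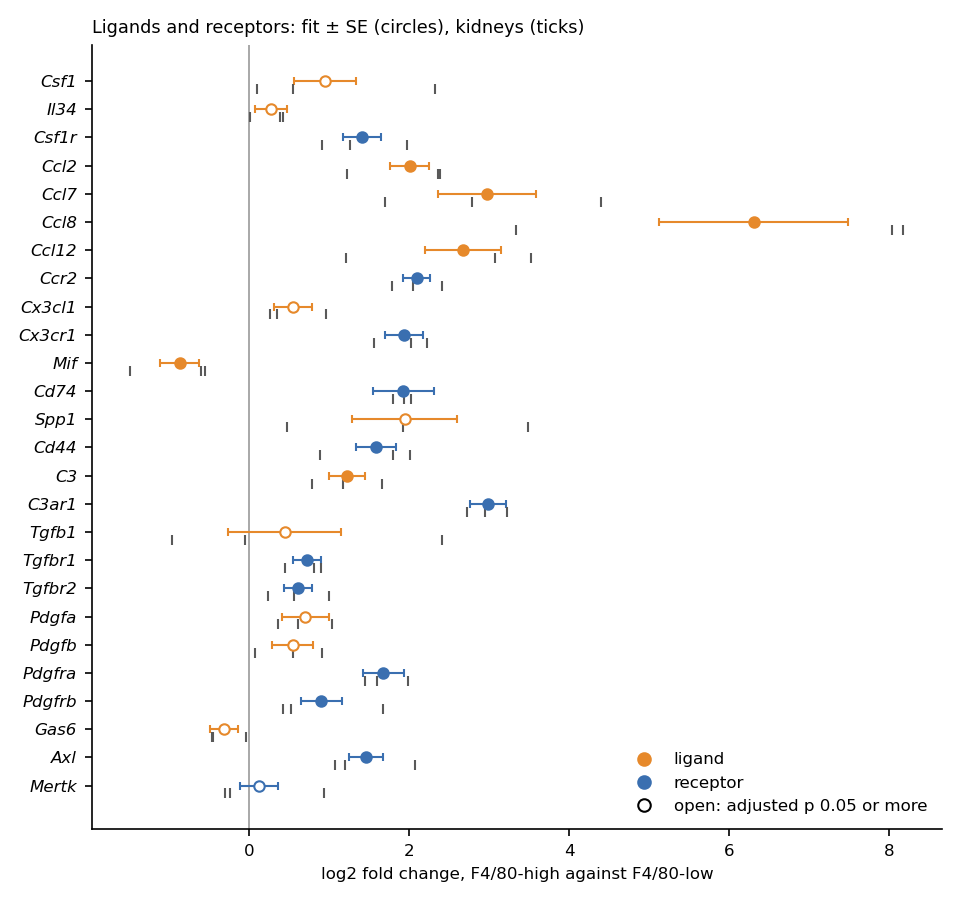
Log2 fold change of F4/80-high against F4/80-low regions (x axis) for the 26 genes of the ligand and receptor axes, with circles for the fit, bars for 1 standard error and ticks for the 3 kidneys; open circles were not called. Of the receptors only Mertk, at 0.12, is open, whereas the ligands Csf1, Il34, Cx3cl1, Spp1, Tgfb1, Pdgfa, Pdgfb and Gas6 are open and Mif, at -0.87, lies below 0.

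Complement genes rose in number: 12 of 19 tested were higher and 1 was lower, with a median of 1.59. C3ar1, the receptor of the C3a fragment, had 28.7, 66.5 and 99.6 CPM against 2.00, 8.25 and 16.6 CPM (2.98 ± 0.23, adjusted p = 0.000765). Properdin, Cfp, which stabilises the alternative pathway convertase, had 10.3, 45.5 and 93.8 CPM against 3.29, 6.68 and 17.9 CPM (2.55 ± 0.34, adjusted p = 0.00194). C1qb, a chain of the first classical component, changed by 2.41 ± 0.33, adjusted p = 0.00194. An inhibitor rose as well: Serping1, the C1 inhibitor, had 392, 435 and 649.8 CPM against 79.4, 127 and 168 CPM (1.93 ± 0.28, adjusted p = 0.00218). C3ar1 and Serping1 did not overlap between region types. The central component C3 also rose (1.22 ± 0.22, adjusted p = 0.00523), and its adjusted p was 0.11 without F4/80-low kidney 2 replicate 1. The lower member was Cd55, a surface inhibitor of the convertases, whose list had 0 to 2 lower calls in single-library fits.

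Extracellular proteases and their inhibitors had 11 of 21 genes higher and 1 lower. Mmp3, stromelysin 1, had 14.1, 29.2 and 54.9 CPM against 0.449, 2.84 and 11.2 CPM (3.28 ± 0.44, adjusted p = 0.00221). Mmp2, gelatinase A, had 25.6, 57.8 and 79.2 CPM against 3.14, 6.20 and 15.1 CPM (3.08 ± 0.41, adjusted p = 0.00254). The inhibitor Serpine2, protease nexin 1, had 245, 462 and 564 CPM against 38.0, 61.4 and 111 CPM (2.67 ± 0.33, adjusted p = 0.00152). All 3 separated the region types completely. The tissue inhibitors of metalloproteinases went in opposite directions, Timp1 up (2.15 ± 0.47, adjusted p = 0.0185) and Timp3 down (-1.03 ± 0.29, adjusted p = 0.0282). Both calls were lost in single-library fits. Without F4/80-low kidney 2 replicate 1 the adjusted p was 0.0762 for Timp1 and 0.0746 for Timp3. Timp1 had 7.54 CPM in that library and 73.6 CPM in replicate 2, which that fit keeps. Without F4/80-low kidney 3 replicate 2 the adjusted p was 0.0825 for Timp1. With library totals Timp3 had an adjusted p of 0.0839.

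The promoters of Mmp3 and Mmp7 are shown because both genes carry the letters of an AP-1 site, TGAGTCA, marked in capitals. AP-1 is a dimer of Fos and Jun proteins.
Mmp3, chr9:7445731-7445821, plus strand: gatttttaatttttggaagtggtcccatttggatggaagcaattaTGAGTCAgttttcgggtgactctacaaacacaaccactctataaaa
Mmp7, chr9:7691982-7692078, plus strand: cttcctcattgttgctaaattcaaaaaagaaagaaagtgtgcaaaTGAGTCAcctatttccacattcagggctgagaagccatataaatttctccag
Between the letters and the RefSeq start lie 39 bases in Mmp3, all printed, and 56 in Mmp7, whose printed stretch stops short of the start. They were found within 250 bases before the start in 5 of 13 protease and inhibitor genes with a window and in 503 of 11877 tested genes (4.24%). In the list of immediate early and heat shock genes, 2 of 11 were called higher, Egr1 (1.38 ± 0.28, adjusted p = 0.00748) and Fos (0.95 ± 0.30, adjusted p = 0.0440), and Jun was not (0.50 ± 0.28, adjusted p = 0.222). With so few genes tested, that count is not far from the 10.3% of all genes called higher. The call of Fos was lost in 11 of the 18 single-library fits, with adjusted p up to 0.267.

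Interstitial matrix genes rose broadly: 17 of 24 tested were higher and 0 were lower, with a median of 1.56. Without kidney 1 the count of higher genes was 4, with a median of 1.72. The list summed to 2981, 3955 and 7397 CPM against 841, 1432 and 2166 CPM, without overlap. Col1a2, a chain of type I collagen, had 211, 382 and 759 CPM against 59.9, 85.8 and 153 CPM (2.07 ± 0.29, adjusted p = 0.00209). Mgp, matrix Gla protein, had 644, 836 and 1428 CPM against 166, 206 and 444 CPM (1.89 ± 0.28, adjusted p = 0.00254). Both separated the region types. The list's fibroblast receptor Pdgfra is given above with its ligand. In the basement membrane list 2 of 20 genes were higher, Nid1 (1.00 ± 0.25, adjusted p = 0.0177) and Lama2 (0.82 ± 0.19, adjusted p = 0.0131), and 2 were lower, Lamc3 (-1.86 ± 0.55, adjusted p = 0.0352) and Lama1 (-0.91 ± 0.27, adjusted p = 0.0361). These shares are near those of all genes tested. In single-library fits the basement membrane list had 1 to 4 higher and 0 to 4 lower calls, and with library totals it had 7 higher and 0 lower with a median of 0.89. Smooth muscle and pericyte genes had 2 of 11 higher, Des and Pdgfrb, with Acta2 not called (1.59 ± 0.57, adjusted p = 0.0874). With so few genes tested, that count is not far from the 10.3% of all genes called higher. The smooth muscle count was 1 to 5 in single-library fits, with 5 without F4/80-low kidney 1 replicate 1. Endothelial genes had 0 of 16 higher and 2 lower (6 without F4/80-high kidney 3 replicate 1), and their summed levels overlapped (251, 456 and 894 CPM against 339, 527 and 734 CPM). Their share of lower genes in the main fit did not exceed the 14.0% of all genes tested.

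Genes of tubular injury and failed repair were higher in 15 of 21 cases and lower in 0, with a median of 1.56. Vcam1, an adhesion molecule of failed-repair tubule cells, had 187, 283 and 427 CPM against 15.8, 99.4 and 172 CPM (1.66 ± 0.27, adjusted p = 0.00338). Sox4, a transcription factor of injured epithelium, had 56.1, 77.3 and 102 CPM against 17.2, 22.7 and 28.3 CPM (1.81 ± 0.25, adjusted p = 0.00204). Neither overlapped between region types. Havcr1, the injury marker KIM-1, did overlap, with 239.8, 308 and 523 CPM against 8.84, 70.1 and 739 CPM, and was not called (1.16 ± 0.75, adjusted p = 0.309). Its difference was 2.99 in kidney 1, 0.02 in kidney 2 and 0.39 in kidney 3. The count of higher injury genes was 7 without F4/80-low kidney 2 replicate 1, and 5 without kidney 1 altogether, with a median of 1.44.

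Among cytokines 5 of 15 genes tested were higher and 3 were lower. The alarmin Il33 had 46.6, 80.3 and 108 CPM against 17.9, 20.6 and 49.4 CPM (1.56 ± 0.21, adjusted p = 0.00194), and the interleukin 1 receptor antagonist Il1rn had 7.22, 15.8 and 58.4 CPM against 0.471, 1.79 and 11.3 CPM (2.38 ± 0.33, adjusted p = 0.00194). Tnfsf13b, the B cell survival factor BAFF, rose without overlap (1.67 ± 0.29, adjusted p = 0.00439). Il15, which sustains T and NK cells, fell (-1.23 ± 0.18, adjusted p = 0.00244) with overlapping libraries, 5.69, 8.07 and 17.3 CPM against 14.8, 22.5 and 31.9 CPM. The lower cytokine calls numbered 1 without F4/80-high kidney 2 replicate 2 or F4/80-high kidney 3 replicate 2.

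Of 41 growth factor genes tested 10 were higher and 4 were lower. Over all genes tested 10.3% were higher and 14.0% lower, so lower calls were no more frequent than among all genes. Edn1, the vasoconstrictor endothelin 1, had 14.3, 18.8 and 24.2 CPM against 1.79, 4.28 and 7.41 CPM (2.08 ± 0.31, adjusted p = 0.00252). Igf1, insulin-like growth factor 1, had 24.5, 41.9 and 79.0 CPM against 9.72, 11.0 and 24.0 CPM (1.62 ± 0.23, adjusted p = 0.00223). Bmp7, an epithelial factor known to oppose fibrosis, was lower, with 5.25, 9.83 and 12.6 CPM against 15.4, 24.4 and 36.0 CPM (-1.45 ± 0.19, adjusted p = 0.00167). These 3 did not overlap. Egf, the epidermal growth factor made by the thick ascending limb and distal tubule, had 1.63, 7.68 and 32.8 CPM against 89.2, 277 and 396 CPM (-4.75 ± 0.63, adjusted p = 0.00298). Its fall was larger than 3.8 on the log2 scale in each kidney.

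Of 24 interferon response genes tested 3 were higher, Oas1a (1.71 ± 0.52, adjusted p = 0.0413), Bst2 (0.96 ± 0.28, adjusted p = 0.0382) and Oasl2 (0.76 ± 0.21, adjusted p = 0.0290), and 0 were lower, a share close to the 10.3% of all genes. The list's median was 1.18 in kidney 1, -0.45 in kidney 2 and 0.95 in kidney 3. Its summed level in F4/80-low kidney 2 replicate 2 was 1682 CPM, against 243 to 382 CPM in the other F4/80-low libraries and 387 to 739 CPM in F4/80-high libraries. With library totals 9 genes were higher. Without that library 14 genes were higher and 1 was lower. Without F4/80-low kidney 2 replicate 1 the count of higher genes was 0, with replicate 2 then alone for that kidney and region type. Without non-cystic kidney 1 replicate 2 the count was 1. Ifit1, an interferon-induced RNA-binding protein, showed the pattern: 4.90, 13.2 and 31.7 CPM in F4/80-high libraries against 2.92, 7.81 and 193 CPM in F4/80-low libraries, with differences of 1.59, -2.89 and 1.43 in the 3 kidneys (0.03 ± 0.96, adjusted p = 0.986). Cxcl10, an interferon-induced chemokine, had 5.32, 8.56 and 20.2 CPM against 1.89, 16.1 and 126 CPM and was not called (-1.77 ± 0.54, adjusted p = 0.0518), although 3 single-library fits called it lower.

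The promoters of Ifit1 and Oas1a are shown because most list genes with a window carry the letters of the interferon-stimulated response element. It was searched as GAAA, any 2 bases and GAAA on both strands and marked in capitals. In Ifit1 the letters lie on the opposite strand and the printed stretch stops short of the start, and in Oas1a both matches overlap.
Ifit1, chr19:34640740-34640858, plus strand: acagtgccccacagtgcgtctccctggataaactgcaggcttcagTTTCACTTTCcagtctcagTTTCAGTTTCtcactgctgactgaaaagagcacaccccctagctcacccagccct
Oas1a, chr5:120907526-120907590, minus strand: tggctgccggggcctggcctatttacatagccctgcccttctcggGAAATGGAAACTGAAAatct
Matches were found in 14 of 21 list genes with a window and in 394 of 11877 tested genes (3.32%). They describe letters and show no binding.

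**Figure D4:**
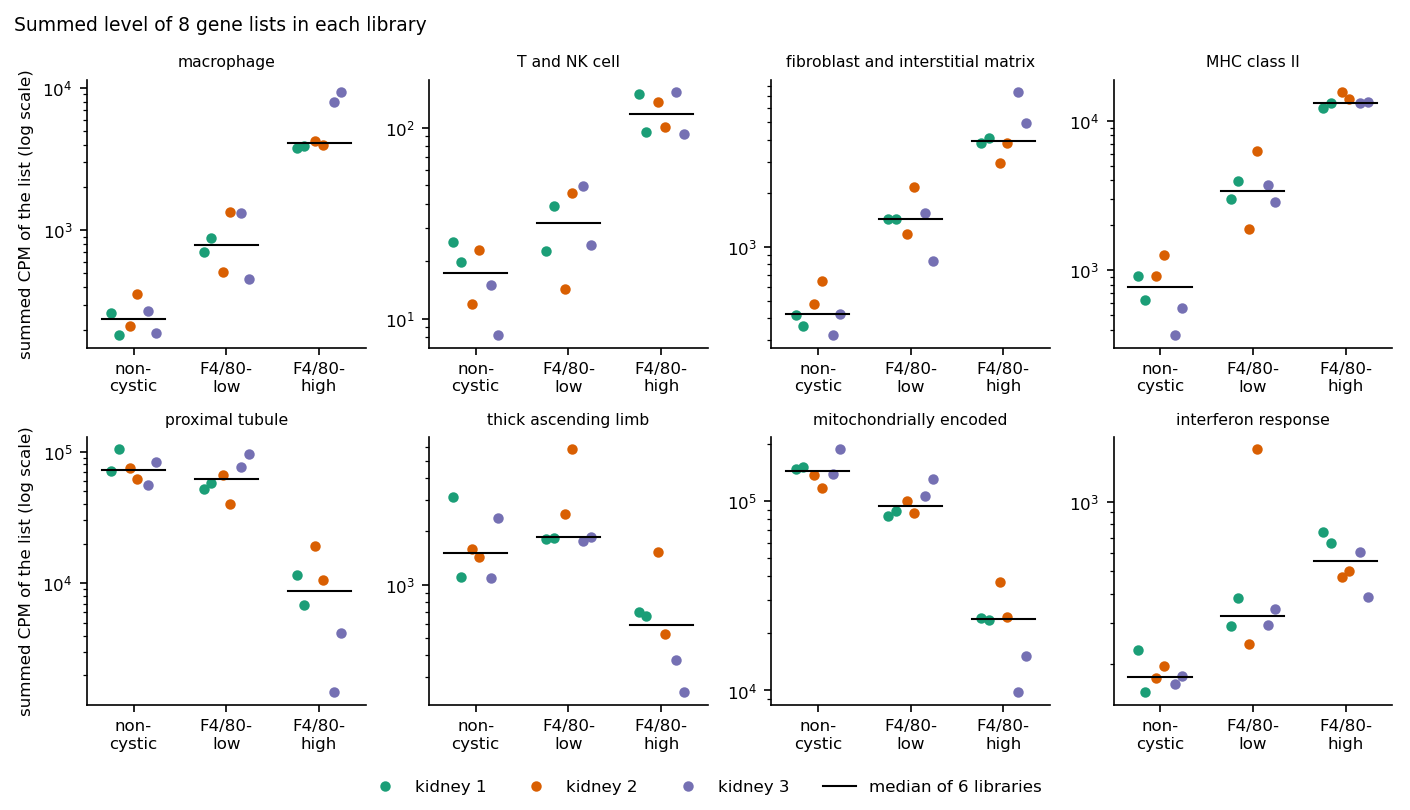
Summed CPM on a log axis of 8 gene lists (panels) in each library of the 3 region types (x axis), coloured by kidney, with a bar at the median of 6 libraries. Macrophage, T and NK cell, matrix and MHC class II sums of F4/80-high libraries lie above all F4/80-low libraries, proximal tubule and mitochondrially encoded sums lie below them, and 1 F4/80-low library of kidney 2 reaches 1682 CPM in the interferon panel.

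Proximal tubule genes were lower almost without exception: 31 of 33 were called lower and 0 higher, with a median of -3.00. The list summed to 1482, 8716 and 19234 CPM in F4/80-high and 40188, 62113 and 96206 CPM in F4/80-low libraries, without overlap. By kidney the median was -2.63, -1.96 and -4.81. Ggt1, a brush border enzyme of glutathione breakdown, had 17.8, 68.0 and 189.9 CPM against 559, 656 and 773 CPM (-3.26 ± 0.45, adjusted p = 0.00215). Cyp4b1, a cytochrome of fatty acid hydroxylation, had 140.5, 324 and 836 CPM against 1339, 3691 and 4436 CPM (-3.36 ± 0.46, adjusted p = 0.00194). The endocytic receptor Lrp2 changed by -2.60 ± 0.44, adjusted p = 0.00405, and the proximal tubule transcription factor Hnf4a by -1.60 ± 0.31, adjusted p = 0.00692. The 2 genes not called were the glucose transporter Slc5a2 (-1.83 ± 0.89, adjusted p = 0.188) and the lactate transporter Slc5a12 (-0.58 ± 0.55, adjusted p = 0.488). The direction of the list was the same with library totals, where 31 genes were lower and the median was -2.54. Without kidney 1, 5 genes were called lower and the median was -3.14.

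In the thick ascending limb 4 of 8 genes were lower and 0 higher, including the cotransporter Slc12a1, with 1.13, 15.4 and 55.5 CPM against 60.3, 106 and 309 CPM (-3.03 ± 0.33, adjusted p = 0.00121), and uromodulin, Umod (-1.99 ± 0.41, adjusted p = 0.00849). Slc12a1 separated the region types completely, but its adjusted p was 0.181 without non-cystic kidney 3 replicate 2. The list had 7 lower calls without F4/80-high kidney 3 replicate 1. The distal convoluted and connecting tubule list had 3 of 10 genes lower, and 0 were lower without F4/80-low kidney 2 replicate 1. Principal cell genes had 1 of 10 lower, the water channel Aqp3 (-2.61 ± 0.75, adjusted p = 0.0492), and intercalated cell genes 1 of 13, the proton pump subunit Atp6v0a4 (-1.17 ± 0.35, adjusted p = 0.0398). Of the 18 single-library fits, 10 lost the call of Aqp3 and 5 that of Atp6v0a4, with adjusted p up to 0.0933 and 0.104. Neither list's share of lower genes exceeded the 14.0% of all genes tested. Podocyte genes had 0 of 10 called in either direction. Their summed level ran from 73.0 to 855 CPM in F4/80-high and 65.0 to 462 CPM in F4/80-low libraries, and its part in other differences was not tested.

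All 13 mitochondrially encoded genes tested were lower, with a median of -2.35 and no overlap between the region types for any of them. The fit without kidney 1 called 2 of the 13 lower, with a median of -2.55. Mt-Co2, a subunit of cytochrome oxidase, changed by -3.35 ± 0.42, adjusted p = 0.00240. Of 50 nuclear genes of oxidative phosphorylation 48 were lower and 0 higher, with a median of -1.26. Uqcrfs1, the Rieske protein of complex III, had 132, 204 and 356 CPM against 529.9, 683 and 914 CPM (-1.81 ± 0.30, adjusted p = 0.00374). Without F4/80-high kidney 1 replicate 2 the count was 30 and without F4/80-high kidney 2 replicate 2 it was 31. Without kidney 1 it was 0, with a median of -1.38.

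Fatty acid oxidation had 21 of 26 genes lower and 0 higher, with a median of -1.62. Without kidney 1 the count of lower genes was 8, with a median of -1.58. Ehhadh, a peroxisomal enzyme, had 0.30, 2.11 and 3.82 CPM against 14.7, 19.3 and 32.5 CPM (-3.34 ± 0.39, adjusted p = 0.00146). Acads, a short-chain acyl-CoA dehydrogenase of mitochondria, changed by -1.66 ± 0.17, adjusted p = 0.000852, and Ppara, the nuclear receptor that drives this programme, by -2.08 ± 0.32, adjusted p = 0.00330. Each of these 3 genes had all F4/80-high libraries below all F4/80-low libraries. Glycolysis genes had 1 of 17 higher, the myeloid hexokinase Hk3 (3.51 ± 0.70, adjusted p = 0.00770), and 6 lower, led by Tpi1 (-1.17 ± 0.29, adjusted p = 0.0189). Hk3 was close to 0, at 0.983 to 3.74 CPM in F4/80-high and 0 to 0.438 CPM in F4/80-low libraries. That count of lower glycolysis genes was 1 with library totals, where the list's median turned to 0.07, and 2 without F4/80-high kidney 1 replicate 2. Hypoxia-induced genes had 0 of 10 higher and 3 lower, 0 lower with library totals and 1 without F4/80-high kidney 1 replicate 2. The fall of proximal tubule and mitochondrial genes and the rise of macrophage genes occur in the same 6 libraries, so their parts in any one gene's change cannot be told apart.

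Fc receptor and NADPH oxidase genes had 9 of 12 higher and 1 lower, the oxidase subunit Cyba, a call lost in 11 of 18 single-library fits. The Fc receptor Fcgr1 changed by 2.70 ± 0.36, adjusted p = 0.00178, the GTPase Rac2 by 2.31 ± 0.20, adjusted p = 0.000765 and the oxidase subunit Cybb by 1.81 ± 0.23, adjusted p = 0.00152. Toll-like receptor and inflammasome genes had 10 of 15 higher and 0 lower, including Tlr13 (2.25 ± 0.40, adjusted p = 0.00485) and the adaptor Pycard (1.25 ± 0.15, adjusted p = 0.00144). Integrin genes had 8 of 20 higher, led by Itgam (2.57 ± 0.39, adjusted p = 0.00283) and Itgb2 (1.84 ± 0.36, adjusted p = 0.00753), the chains of the leukocyte integrin Mac-1, and 4 of 20 without F4/80-low kidney 2 replicate 1. Integrin Itgb8, which activates latent TGF-beta, was the 1 lower member (-0.69 ± 0.16, adjusted p = 0.0150) and was lost without F4/80-high kidney 1 replicate 2. Of the lysosomal genes 2 of 20 were higher, Ctsc (2.09 ± 0.32, adjusted p = 0.00323) and Hexa (1.08 ± 0.21, adjusted p = 0.00689), 3 were lower, including the sialidase Neu1 (-1.81 ± 0.27, adjusted p = 0.00253) and the galactosidase Glb1 (-1.19 ± 0.22, adjusted p = 0.00601), and the median was -0.03, shares near those of all genes tested. With library totals 8 lysosomal genes were higher and 2 lower, with a median of 0.46.

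In the cell cycle list 4 of 26 genes were higher and 0 lower, among them the replication helicase subunit Mcm4 (1.16 ± 0.28, adjusted p = 0.0150) and the chromatin protein Hmgb2 (0.88 ± 0.16, adjusted p = 0.00560). Over all genes tested 10.3% were higher, a share not far from that of this list. The count of higher cell cycle genes was 1 without F4/80-low kidney 2 replicate 1 and 2 without any 1 of 4 other libraries, and 13 with library totals. The proliferation marker Mki67 had 12.8, 31.4 and 59.4 CPM against 12.1, 18.8 and 41.0 CPM and was not called (0.49 ± 0.38, adjusted p = 0.383). Of 11 cell cycle inhibitor and p53 target genes 2 were higher, Phlda3 (1.78 ± 0.42, adjusted p = 0.0194) and Cdkn2b (2.36 ± 0.63, adjusted p = 0.0282), 1 was lower, the stress gene Sesn2, and Cdkn1a was not called (1.43 ± 0.56, adjusted p = 0.115). Cdkn2b lost its call without F4/80-high kidney 1 replicate 2 (adjusted p = 0.11), F4/80-high kidney 2 replicate 2 or non-cystic kidney 1 replicate 1. YAP target genes had 2 of 10 higher, Axl and Ccn1, and Ccn1 lost its call in 6 of 18 single-library fits, with adjusted p up to 0.0831. With so few genes tested, the YAP and p53 target counts are not far from the 10.3% of all genes called higher. Of 23 genes of cystic disease and the cilium 1 was higher, the RNA-binding protein Bicc1 (0.72 ± 0.20, adjusted p = 0.0277), and 1 was lower, Glis2 (-0.67 ± 0.16, adjusted p = 0.0176). Both lost their calls without F4/80-low kidney 2 replicate 1, with adjusted p of 0.0590 and 0.0641, and with library totals 5 genes of the list were higher and 0 lower. In the main fit both shares of this list lay below those of all genes tested, 10.3% higher and 14.0% lower. Pkd1 itself, the gene deleted in all region types, had 4.88, 9.48 and 14.1 CPM against 4.79, 6.54 and 11.0 CPM (0.38 ± 0.33, adjusted p = 0.428). Counts over the whole gene include its undeleted exons, so they do not check the deletion. Pkd2 (-0.43 ± 0.15, adjusted p = 0.0616), the partner of polycystin 1, and the tubule cadherin Cdh16 (-0.69 ± 0.24, adjusted p = 0.0598) were not called. With library totals the difference of Pkd2 was 0.05, and its adjusted p was 0.0306 without F4/80-high kidney 1 replicate 1. Read strand was not kept by the library kit, so counts of genes that overlap another gene on the opposite strand cannot be told apart from that gene's: of those given above, these include Mmp7, Mogat2, Csf1r, Cx3cr1, Pdgfra, Egf, Edn1, Sox4, Vcam1, Timp3, Bicc1, Glis2, Psmb8 and Pkd1.

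To see where this step differs from the step from non-cystic to F4/80-low regions, the difference between both steps was tested in the same fit. Both steps use the F4/80-low sums. The first step alone had 242 higher genes (1.51%) and 4 lower (0.0249%). No gene had a significantly more positive second step (0.00% of 16034 genes; 478 at an unadjusted p below 0.05, and 40 called by DESeq2). The second step was more negative for 4 genes (0.0249%; 1462 unadjusted, and 309 by DESeq2): C3, Krt20, Ptgds and Sprr1a. C3 had 4.55, 6.11 and 8.11 CPM in non-cystic, 21.0, 106 and 279 CPM in F4/80-low and 177, 285 and 656 CPM in F4/80-high libraries. The first step was 4.39 and the second 1.22, a difference of -3.16 (adjusted p = 0.0317). Krt20, a keratin of umbrella cells and injured tubules, had 0, 0 and 0.355 CPM, 5.89, 20.4 and 87.2 CPM and 29.5, 59.1 and 121 CPM in the same order. Its steps were 8.07 and 1.07 (difference -7.01, adjusted p = 0.0158). Ptgds, the prostaglandin D2 synthase, had 2.07, 3.85 and 7.29 CPM, 13.5, 68.1 and 139 CPM and 76.4, 141 and 229.6 CPM, with steps of 4.08 and 0.97 (difference -3.12, adjusted p = 0.0158). For these 3 genes the first step, which starts from low non-cystic levels, was the larger on the log2 scale. In CPM the median rose by more in the second step for all 3. The first-step fold of Krt20 starts so close to 0 that it depends on the prior count and gives no bound. Without F4/80-low kidney 2 replicate 1 the second step alone had an adjusted p of 0.358 for Krt20 and 0.0507 for Ptgds. Sprr1a, a cornified envelope precursor, rose in the first step by 3.62 and fell in the second by 1.14 (difference -4.75, adjusted p = 0.0158). Its libraries overlapped widely, 0, 7.19 and 118 CPM in F4/80-low and 0.712, 3.66 and 45.2 CPM in F4/80-high libraries, and the second step was 0.010 without F4/80-low kidney 3 replicate 1. Without that library or without F4/80-low kidney 2 replicate 1, 0 genes had a more negative step. Without F4/80-high kidney 2 replicate 1 there were 44. Without F4/80-low kidney 2 replicate 2, the library that stood apart, 1 gene had a more negative step. This last library held the highest F4/80-low levels of C3, Krt20 and Sprr1a.

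**Figure D5:**
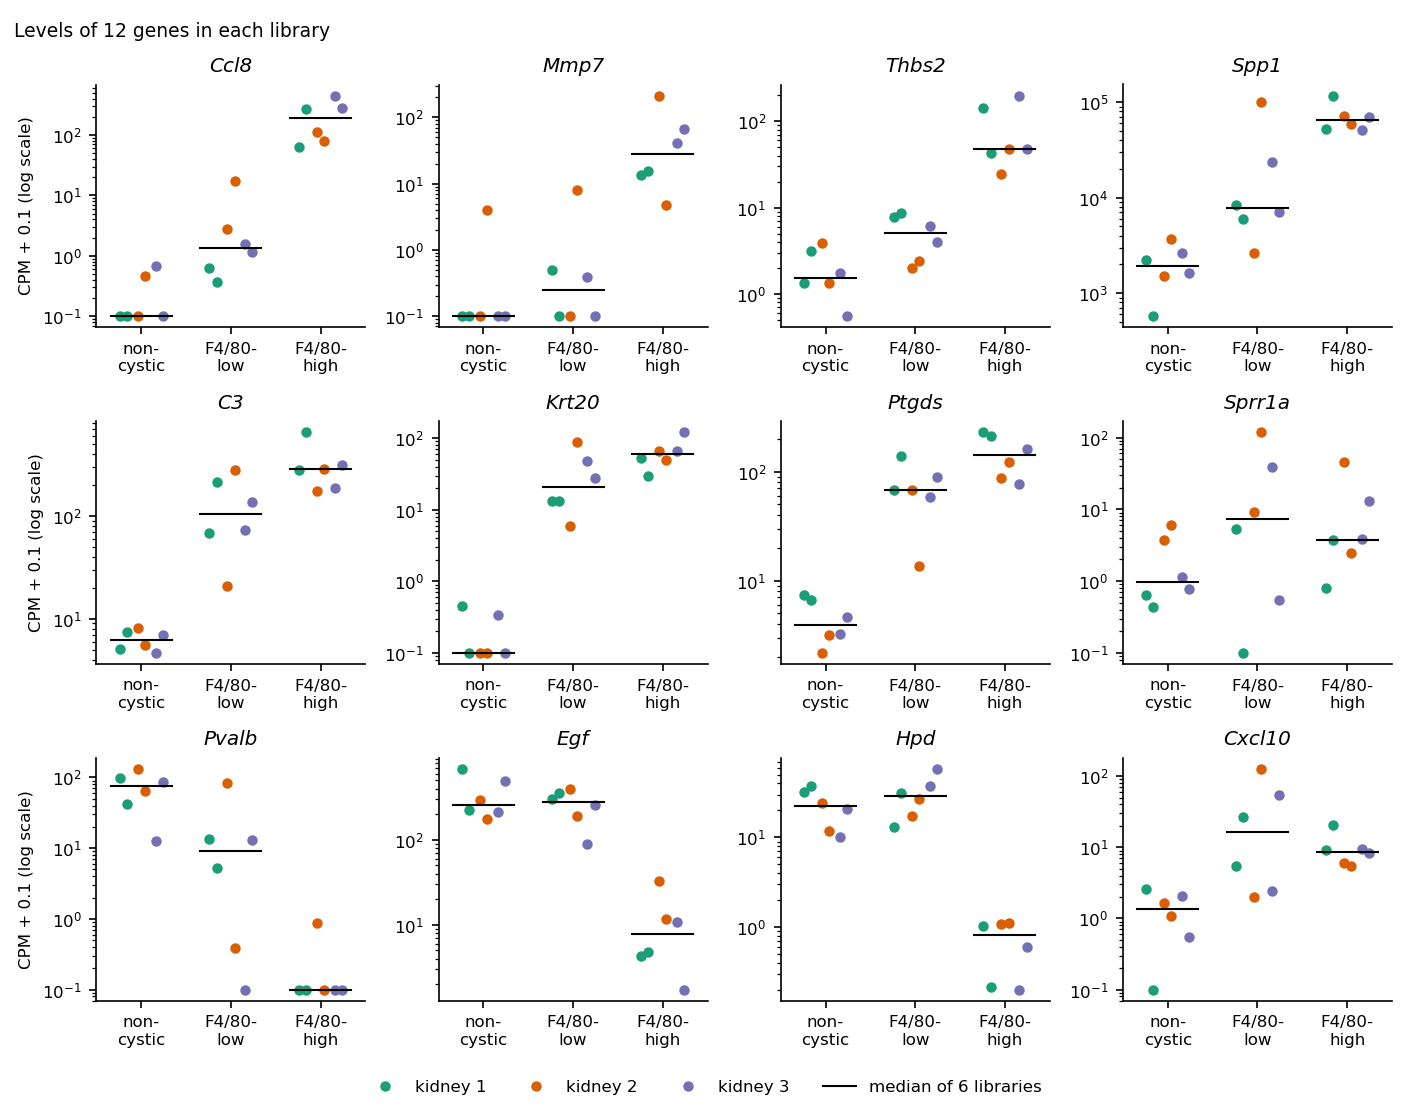
Level of 12 genes (panels) in each library as CPM + 0.1 on a log axis, for non-cystic, F4/80-low and F4/80-high regions (x axis), coloured by kidney, with a bar at the median of 6 libraries. Ccl8 and Thbs2 rise and Hpd and Egf fall between F4/80-low and F4/80-high regions without overlap. On this log axis C3, Krt20 and Ptgds rise more between non-cystic and F4/80-low regions than between F4/80-low and F4/80-high regions. In Ccl8, Mmp7, Spp1, C3, Krt20, Sprr1a and Cxcl10 the highest F4/80-low library is kidney 2 replicate 2.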

How the data were processed

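RNA-seq libraries of microdissected kidney regions were analysed from 1 deposited table of read counts per gene, which the authors made. Per the submitters' processing notes, FastQC 0.11.9, fastp 0.20.1 and HTSeq 0.11.0 were used with mm10 (GRCm38). The labels name no aligner, annotation or strand setting. The kit, NEBNext Single Cell/Low Input per the labels' protocols, does not mark strand. The deposited counts were summed over the 2 libraries of each kidney and region type, because both come from 1 kidney, although the labels call them biological replicates. All 9 sums entered 1 edgeR 4.0.16 quasi-likelihood fit (TMM, filterByExpr, robust) with kidney as a block, in R 4.3.3. Of 32285 genes, 16034 were tested. The kidney number pairs the regions per the labels. As a check, deviations of F4/80-high and F4/80-low sums correlated at 0.102, 0.108 and -0.154 in kidneys 1, 2 and 3.

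Genes were named by a rule: the 10 largest called differences each way at a mean log2 CPM of at least 3 with 1 direction in all 3 kidneys (without predicted genes and immune receptor segments), the 4 smallest p of each list, all ligand and receptor axis genes, Adgre1, Pkd1, Pkd2 and Cdh16, and the 5 largest step differences each way. Arg1, Cd55, Cxcl12, Cyba, Havcr1, Hnf4a, Ifit1, Lrp2, Mki67, Ppara, Retnla, Slc5a12, Slc5a2, Timp1 and Timp3 lie outside it and were picked with their values known. Comparison, members and lists were chosen with earlier results of these data known. Alternatives were other scalings, filters, DESeq2 1.42.0, limma 3.58.1 voom, library-level fits and leaving out libraries or kidneys. The pipeline was tested on simulated data. Totals of 5841975 to 9188813 counts limit the precision of low genes.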

Additional observations from a re-analysis of the deposited data

Results flagged for a closer look

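In 6 of 142 groups of 6 libraries, 1 library lay far from the others by Dixon's ratio of gap to range. Chance flags about 1 in 20 groups. Gaps in CPM were taken on the log2 scale after adding 0.5.

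Of these, 4 concern F4/80-low kidney 2 replicate 2. Spp1 took 8.90% of its counts, against 0.241% to 2.09% in the other 5 F4/80-low libraries. Its interferon response genes summed to 1682 CPM against 243 to 382 CPM. Its thick ascending limb genes summed to 5830 CPM against 1762 to 2506 CPM. Its Mmp7 level was 8.00 CPM against 0 to 0.399 CPM. The same library thus held the highest F4/80-low value in 4 different measures.

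Among F4/80-high libraries, the intercalated cell genes summed to 68.8 CPM in kidney 3 replicate 1, against 319 to 620 CPM in the others (the lowest library was the one apart). Pvalb was at 0.765 CPM in kidney 2 replicate 1 and at 0 in the other 5. With 5 libraries tied at 0 the ratio is 1 for any other value, so this flag does not show a library far from the others.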

How the results depend on the processing

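The number of higher genes, 1649 in the fit reported, was 4211 with library totals, 2687 with all 18 libraries and kidney as replicate block, 2480 with voom, and 894 and 846 with the libraries of replicate label 1 or 2 alone. The 2246 lower genes became 1120, 2939, 2774, 1011 and 1729 in the same order, and 1293 when both compared region types were fitted alone with the replicate block. Without the replicate block 1760 genes were higher and 2274 lower. Leaving out 1 kidney or library gave 467 to 1830 higher and 521 to 2441 lower genes. The fit without kidney 1 gave the lowest counts, and it has fewer sums. The 0 positive step differences were 1 with DESeq2 size factors, 14 with no filter, 40 by DESeq2, 67 with 18 libraries and the replicate block, 20 with voom and 0 to 6 when leaving out. The 4 negative ones were 7 with library totals, 210 with no filter, 309 by DESeq2, 540 with 18 libraries, 313 with voom, 1 with replicate label 1 alone and 0 to 91 when leaving out. The cause was not tested. Cxcl10 turned to 1.45 with replicate label 1 alone, and Sprr1a to 0.68 with replicate label 2 alone and to 0.010 without F4/80-low kidney 3 replicate 1 (-1.90 to 0.010 when leaving out). Lists of few or low genes are limited by depth and by 3 kidneys.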

Other observations

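The genes in this section were chosen after their values were seen. They are single genes and no group was counted or tested. Higher were the C-type lectin receptors Clec4a1 (3.19 ± 0.26, adjusted p = 0.000765), Clec4n (3.36 ± 0.58, adjusted p = 0.00670) and Clec12a (2.84 ± 0.25, adjusted p = 0.000765), and the tetraspan proteins Ms4a6d (3.12 ± 0.32, adjusted p = 0.000852) and Ms4a6c (2.63 ± 0.34, adjusted p = 0.00225). Clec4a1 had 26.3, 37.0 and 52.4 CPM in F4/80-high and 0.707, 4.90 and 6.28 CPM in F4/80-low libraries. Also higher were haptoglobin, Hp, a plasma protein that binds free haemoglobin, with 11.3, 16.1 and 68.5 CPM against 0.411, 2.44 and 11.3 CPM (3.14 ± 0.43, adjusted p = 0.00226), and the copper carrier ceruloplasmin, Cp, with 338, 526 and 663 CPM against 57.9, 93.7 and 179.7 CPM (2.37 ± 0.34, adjusted p = 0.00220).

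Among lower genes, the methyltransferase Bhmt2, an enzyme of methionine metabolism, had 0.251, 5.11 and 13.8 CPM against 58.3, 80.9 and 140.5 CPM (-4.27 ± 0.64, adjusted p = 0.00591). Dmgdh, which breaks down dimethylglycine, changed by -4.42 ± 0.71, adjusted p = 0.00758, and Cbs, which condenses homocysteine with serine, by -3.34 ± 0.54, adjusted p = 0.00670. The argininosuccinate synthase Ass1, which makes the precursor of arginine, had 23.7, 152 and 277 CPM against 531, 1219.5 and 1643 CPM (-3.29 ± 0.49, adjusted p = 0.00250). The transferrin receptor Tfrc, which brings iron into cells, fell with a small error (-2.17 ± 0.17, adjusted p = 0.000765), at 6.50, 7.39 and 10.9 CPM against 24.1, 31.9 and 51.6 CPM.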
